A study of Mus musculus with 12 samples.

Results

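The 31 genes of the glucocorticoid response described here were followed across 12 mouse arrays: the glucocorticoid receptor Nr3c1, 3 genes that act on the receptor or its hormone, and genes known or listed as responding to glucocorticoids. A gene of the list entered when at least 1 probe set (the group of probes that reads 1 transcript) carried its symbol in the deposited annotation, whatever its value. The list itself was chosen with earlier results of these data known. All 31 symbols were found, on 64 of the 45037 probe sets that are not controls, and they are 31 of the 20670 genes named on the array. The question asked of them was how far they changed after dexamethasone, a synthetic glucocorticoid, and whether that response differed between the lines and between siRNAs.

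Glucocorticoids cross the cell membrane and bind the receptor, a nuclear receptor held in the cytoplasm by heat shock proteins and immunophilin co-chaperones such as Fkbp4 and Fkbp5. The bound receptor enters the nucleus, where it binds glucocorticoid response elements, palindromic DNA sites, and raises some genes while it lowers others, many of them inflammatory. Dexamethasone is a standard part of the cocktails that turn preadipocytes into fat cells in culture.

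RNA came from 3T3-L1 preadipocytes, mouse fibroblast-like cells that can become fat cells, and from 10T1/2 mesenchymal stem cells, which can form several connective tissues. Both are established lines. All cells were transfected with siRNA at seeding. Those at 0 hr were harvested just before the medium was changed to differentiation medium with 0.25 µM dexamethasone. The others were transfected a second time at that change and harvested 36 hr later for 3T3-L1 and 48 hr later for 10T1/2. Each line was given a negative control siRNA (si-Ctr) or an siRNA against Setdb1 (si-Setdb1), a histone methyltransferase. Experiment A of 3T3-L1 covers si-Ctr and si-Setdb1 at 0 and 36 hr, and the 10T1/2 arrays cover the same siRNAs at 0 and 48 hr, with 1 array each. Experiment B of 3T3-L1 covers si-Ctr, si-Setdb1 and siRNAs against Mbd1, a reader of DNA methylation, and Mcaf1 (Atf7ip), a partner of Setdb1, all at 0 hr per the titles. The descriptions of the si-Mbd1 and si-Mcaf1 arrays say 36 hr of dexamethasone instead. The Mbd1 and Mcaf1 siRNAs were not analysed in 10T1/2.

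The signals are the authors' intensities on a linear scale. Experiment B differed from the remaining 8 arrays, with median signals of 14.9 to 18 against 11.2 to 12.1 and Gapdh 3'/5' ratios of 0.691 to 0.747 against 0.859 to 0.933. They took no part in the tests of dexamethasone. Fibroblast markers matched the labelled cells: 8 of 8 were above the filter level on every array, among them Col1a2 and Vim, although Dlk1 read 25.5 to 98.4 in 10T1/2. Atf7ip was higher on each array with the Setdb1 siRNA than on its si-Ctr partner, at 484.5 against 187.3, 402.8 against 105.9 and 399.5 against 159.6 in 3T3-L1, and 502.6 against 128.3 and 358.9 against 105.9 in 10T1/2. The brightest Setdb1 probe set did not fall with its siRNA (149.9, 154.7, 157.8, 209 and 143, against 124.8, 179.8, 124.3, 120.5 and 144.8 with si-Ctr). Of its dim probe sets, 1 was lower in each pair, at 0.4 to 9.9 against 1.6 to 24.4. Another was higher in each pair, at 7.3 to 22.1 against 6 to 11.7. The Setdb1 siRNA is therefore named as a label throughout, and so is that against Mcaf1, since Atf7ip was at 154.5 with it and 159.6 with si-Ctr, while Setdb1 was at 270.9 with it and 144.8 with si-Ctr. What these values mean for the labels was not tested. Mbd1 was at 144 with its own siRNA and 306.2 with si-Ctr.

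After dexamethasone, 11 of the 27 members that could be tested were called higher and 0 lower. The other 4 members, Tat, Mfsd2a, Gpx3 and Ccl11, had mean log2 values under the filter, which corresponds to a signal of 7.67. Fkbp5, Tsc22d3, Dusp1, Errfi1, Sult1a1, Glul, Pdk4 and Nampt rose, from 1.93-fold for Dusp1 to 29-fold for Sult1a1. These are 8 of the 24 members whose mean log2 value at 0 hr was itself above the filter. The remaining 3, Zbtb16, Lcn2 and Orm1, were under it at 0 hr and entered the test only through their treated arrays, so they had to differ, and their values are given as a description. The test paired each array after dexamethasone with the array of the same line and siRNA before it (4 pairs, 8 arrays; limma with Benjamini-Hochberg adjustment over 12402 genes, threshold 0.05). Over all genes 62 rose (0.5%) and 95 were called in either direction (0.766%). The members were chosen with earlier results of these data known, so the shares stand side by side as a description. As a description, the median difference over the 27 members that passed the filter was 1.60 on the log2 scale, against -0.01 over all genes.

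**Figure D1:**
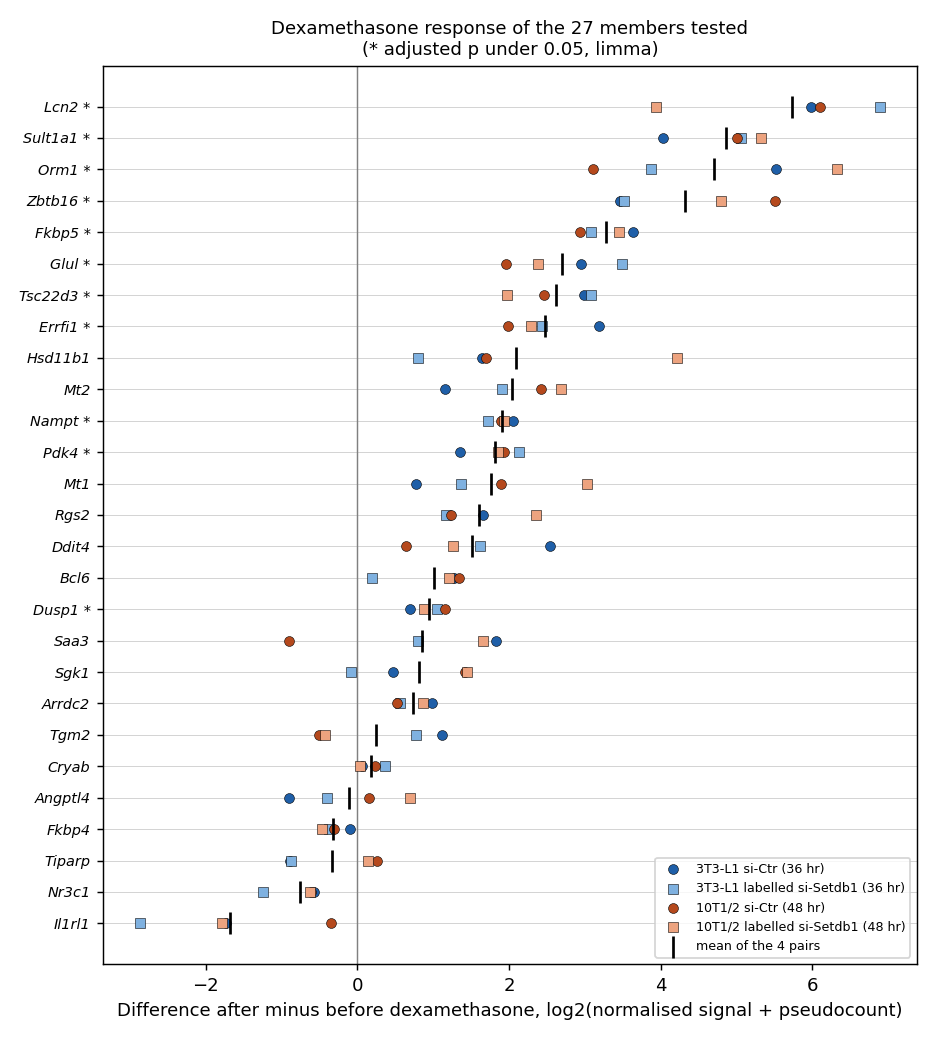
Difference after minus before dexamethasone for each of the 27 members tested, as log2(normalised signal + pseudocount) on the x axis, with 1 point per pair of arrays and a bar at the mean of the 4 pairs. The 11 members with an asterisk passed the threshold, and Nr3c1, Fkbp4 and Il1rl1 lie to the left of 0 in every pair.

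The direction was shared more widely than the calls, in counts that include Zbtb16, Lcn2 and Orm1. Of the 27 members that passed the filter, 19 were higher in 4 of 4 pairs (16.3% of all genes were), 3 were lower in 4 of 4 pairs (15.4% of all genes were), and 5 were mixed. Signals on the 4 arrays after dexamethasone lay above those on all 8 arrays at 0 hr for 16 members, against 1.91% of all genes. In the mean of the 4 pairs, the other probe sets had the sign of the brightest one for 27 of the 27 above the filter level. A further 6 were too dim to read. Single pairs could differ: in the 3T3-L1 pairs another Fkbp4 probe set was at 0.44 and 0.04, and another of Bcl6 at -0.04 and -0.11. Another of Il1rl1 was at 0.10 in the 10T1/2 si-Ctr pair. Another of Nr3c1 was at 0.13 in the 10T1/2 pair labelled si-Setdb1. Leaving out 1 pair cut the number of members called to between 0 and 3, although all 11 kept a positive difference.

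The pairs also differ in more than dexamethasone. The medium was changed and the cells were transfected again at the same moment, and there was no array at 36 or 48 hr without dexamethasone, so hormone, medium, transfection and time in culture cannot be told apart. The p-values cover only the scatter among these arrays, which are not labelled as separate cultures. In bulk RNA, fewer cells of a type and less RNA per cell cannot be told apart either. Adipocyte markers moved with the treatment, but unevenly. Their summed signal over 9 genes was 493.2 to 8458.3 on the 8 arrays at 0 hr and 2702.7 to 18026.8 on the 4 after dexamethasone. These ranges overlap and mix the siRNAs. The 7 tested markers had a median of 1.07, against -0.01 over all genes. Of these, 7 lay above 0 in the mean of the 4 pairs and 1 passed. That was Fabp4, a fatty acid carrier of fat cells, which rose by 4.16 ± 0.43 (log2, SE; limma adjusted p = 0.0391). Cebpa was at 0.19 (limma adjusted p = 0.790). Lpl was at -0.0044 (si-Ctr) and -0.043 (labelled si-Setdb1) in the 3T3-L1 pairs. The part of the adipocyte markers in the members' changes was not tested. Summed signals of macrophage, endothelial, epithelial and muscle markers stayed at or below 155.3, 66.7, 58.9 and 85.9 on every array.

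Among the receptor and the 3 genes that act on it or its hormone, 1 rose. Fkbp5, a co-chaperone that lowers the receptor's affinity for hormone, read 171.7 (si-Ctr) and 175.5 (labelled si-Setdb1) at 0 hr and 2262.8 and 1594.6 at 36 hr in 3T3-L1. In 10T1/2 it read 72.7 and 79.4 at 0 hr and 587.5 and 972.1 at 48 hr, and on the experiment B arrays 122.9 to 195.8. The lowest array after dexamethasone was thus well above the highest at 0 hr, and the groups did not overlap in either line. Fkbp5 rose by 3.28 ± 0.15 (log2, SE, 4 pairs; adjusted p = 0.00635). With its 3 probe sets averaged, 1 of them at a mean signal of 0.79, the difference was 2.19.

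Nr3c1, the receptor itself, lay lower after dexamethasone without passing the test. It read 649.2 and 794.4 at 0 hr and 436.1 and 319.1 at 36 hr in 3T3-L1, and 346.1 and 477 at 0 hr and 222.1 and 304.8 at 48 hr in 10T1/2. Within each line both treated arrays were below both untreated ones, while the lines overlapped with each other. The difference was -0.76 ± 0.15 (adjusted p = 0.105), with pairs from -1.25 to -0.57, and Nr3c1 was called lower with a pseudocount of 16 (adjusted p = 0.0455) and with a stricter filter (0.0340). Nr3c1 has 6 probe sets, and the other 5 gave mean differences of -1.03 to -0.55. Fkbp4, a co-chaperone that helps the receptor reach the nucleus, was lower in each pair by a small amount, -0.31 ± 0.10 (adjusted p = 0.193).

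Hsd11b1 makes active glucocorticoid from its inert form inside the cell. It read 16.9 and 112.3 at 0 hr and 54.5 and 196 at 36 hr in 3T3-L1, and 33 and 46.7 at 0 hr and 110.3 and 1007.6 at 48 hr in 10T1/2. Each treated array was above its own partner, but the highest array at 0 hr, labelled si-Setdb1, was above the 2 treated si-Ctr arrays. The difference was 2.09 ± 0.57 (adjusted p = 0.153), and 1.38 without the 10T1/2 pair labelled si-Setdb1.

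**Figure D2:**
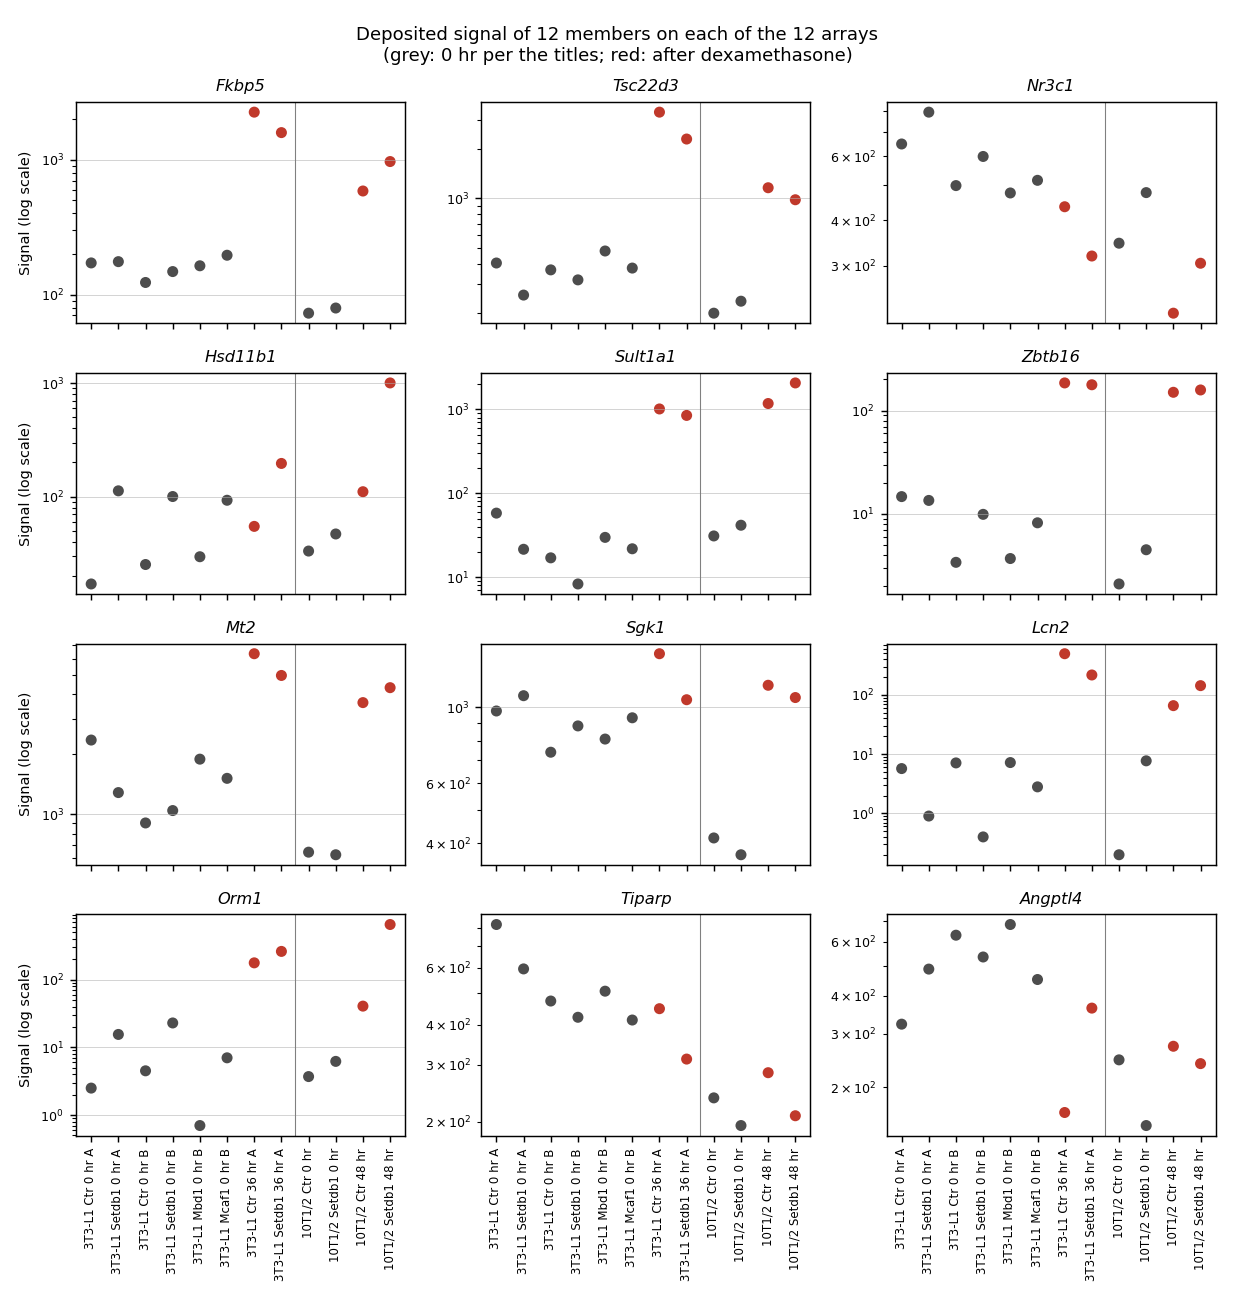
Deposited signal (log axis, each panel with its own range) of 12 members on each of the 12 arrays, grey for 0 hr per the titles and red after dexamethasone, with a vertical line between 3T3-L1 and 10T1/2. Red points lie above every grey point for Fkbp5, Tsc22d3, Sult1a1, Zbtb16, Mt2, Lcn2 and Orm1, and below the grey points of the same line for Nr3c1.

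Of 10 members in signalling and transcription, 4 were called higher, Zbtb16 among them. Tsc22d3, the glucocorticoid-induced leucine zipper that restrains inflammatory transcription factors, read 403 and 256.7 at 0 hr and 3364.3 and 2304.9 at 36 hr in 3T3-L1. In 10T1/2 it read 199 and 235.5, then 1161.7 and 981.2. No treated array overlapped with an untreated one, and the rise was 2.63 ± 0.21 (adjusted p = 0.0270).

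Zbtb16, a zinc finger repressor of transcription, came from signals near the filter level at 0 hr. It read 14.7 and 13.5 in 3T3-L1 and 2.1 and 4.5 in 10T1/2 before, and 184.9, 177.5, 150.1 and 158.1 after it. The treated arrays of both lines ended close together. Starts were unequal between experiment A of 3T3-L1 and 10T1/2, but the experiment B arrays of 3T3-L1 read 3.4 to 9.9 at 0 hr. The difference was 4.32 ± 0.39, and 2.90 with a pseudocount of 16, which damps changes of dim genes. Its p is not given, because the gene passed the filter through its treated arrays alone.

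Errfi1, an inhibitor of the EGF receptor, read 209.7 and 314.5 before and 1992.5 and 1767.5 after in 3T3-L1, and 282.1 and 387.1 before and 1191.4 and 2107.5 after in 10T1/2. It rose by 2.48 ± 0.21 (adjusted p = 0.0305), with every treated array above every untreated one. Dusp1, a phosphatase that switches off MAP kinases, had the smallest rise, 0.95 ± 0.11 (adjusted p = 0.0479), from 191.4 to 302.9 and 174.2 to 360.1 in 3T3-L1 and from 146.9 to 327.9 and 118 to 218.1 in 10T1/2. Its groups did not overlap, but with array medians subtracted, or the deposited scaling kept, its adjusted p was 0.0557 and 0.0533, and it was not called.

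The other 6 of these 10 did not pass. Rgs2, which ends signalling by G proteins of the Gq type, was at 1.60 ± 0.23 (adjusted p = 0.0661), and Ddit4, an inhibitor of mTOR, at 1.52 ± 0.32 (adjusted p = 0.111). Both were higher in each pair, with treated arrays above all untreated ones. Arrdc2, an arrestin-domain protein, stood at 0.73 ± 0.12 (adjusted p = 0.0802) and Bcl6, a transcriptional repressor, at 1.01 ± 0.23 (adjusted p = 0.121), each higher in 4 of 4 pairs. Tiparp, a mono-ADP-ribosyltransferase, was at -0.34 ± 0.25 (adjusted p = 0.491).

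Sgk1, the serum- and glucocorticoid-regulated kinase, was uneven between the lines. It read 976.1 and 1082.1 at 0 hr and 1435.8 and 1053.1 at 36 hr in 3T3-L1, and 414.9 and 370.5 at 0 hr and 1160.8 and 1068.7 at 48 hr in 10T1/2. The 10T1/2 arrays were higher after treatment in both pairs, and in 3T3-L1 1 pair was slightly higher and the other was level, so the groups overlapped. The difference was 0.81 ± 0.30 (adjusted p = 0.219), with pairs from -0.08 to 1.44.

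The promoters of 3 members are shown because they hold the sites closest to those the receptor is known to bind, or belong to the neighbouring metallothionein genes. RefSeq (GRCm38.p6) gave 34 promoter windows for 24 of the 31 members, each from 250 bases before a transcript's start to 50 after. The full palindrome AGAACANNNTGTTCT was in 3 of 32851 windows (0.00913%) and in 1 member, Sgk1, at 1 of its annotated starts. It runs from -189 to -175, with the first transcribed base as 0. The looser form GNACANNNTGTNC was in 0.475% of windows and in 2 members, Sgk1 at the same place and Mt1 at -94 to -82. The hexamer AGAACA alone was in 19.0% of all windows and in 7 of the members' 34, of Bcl6, Gpx3, Sgk1, Sult1a1 and Tsc22d3. Both strands were searched, and a match describes letters, not binding. The 250 bases before the start follow, 5′ to 3′, with capitals for the palindrome in Sgk1 (chr10:21993640-21993889, plus strand), for the looser form and 1 metal response element (either strand) in Mt1 (chr8:94178839-94179088, plus strand), and for 3 metal response elements in Mt2 (chr8:94172368-94172617, plus strand).
Sgk1: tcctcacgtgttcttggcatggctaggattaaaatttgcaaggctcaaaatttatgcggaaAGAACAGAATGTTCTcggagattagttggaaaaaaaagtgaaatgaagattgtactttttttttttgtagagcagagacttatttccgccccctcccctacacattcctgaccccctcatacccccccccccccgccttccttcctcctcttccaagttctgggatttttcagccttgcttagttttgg
Mt1: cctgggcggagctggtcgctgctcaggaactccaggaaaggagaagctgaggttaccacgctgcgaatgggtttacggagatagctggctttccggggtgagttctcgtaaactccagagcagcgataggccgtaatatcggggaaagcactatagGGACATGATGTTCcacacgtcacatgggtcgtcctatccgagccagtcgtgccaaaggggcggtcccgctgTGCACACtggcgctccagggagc
Mt2: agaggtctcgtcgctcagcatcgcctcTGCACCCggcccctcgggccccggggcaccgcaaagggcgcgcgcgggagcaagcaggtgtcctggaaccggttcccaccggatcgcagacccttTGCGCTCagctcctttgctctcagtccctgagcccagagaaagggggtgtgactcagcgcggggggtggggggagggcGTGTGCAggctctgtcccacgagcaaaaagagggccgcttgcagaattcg

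Metal response elements, the sites of the zinc-sensing factor of metallothionein genes, were searched as TGCACNC (12.6% of all windows, 4 of the members' 34) and TGCGCNC (15.4%, 8 of 34). Both forms occurred in the windows of Mt1 and Mt2.

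None of the 3 tested members in metal binding and stress passed. Mt2 and Mt1 encode metallothioneins, small cysteine-rich proteins that bind zinc and copper. Mt2 read 2349.1 and 1282.3 at 0 hr and 6353.8 and 4945.4 at 36 hr in 3T3-L1, and 645.2 and 626.3 at 0 hr and 3616.9 and 4296.3 at 48 hr in 10T1/2. Every treated array lay above all 8 arrays at 0 hr, and the difference was 2.04 ± 0.27 (adjusted p = 0.0578). Mt2 was called when array medians were subtracted (adjusted p = 0.0335) or the deposited scaling was kept (0.0394). Mt1 read 4567.7 and 2946 before and 10144 and 7482.7 after in 3T3-L1, and 1361.5 and 658.8 before and 5198 and 5648.4 after in 10T1/2. It did not overlap either, at 1.77 ± 0.38 (adjusted p = 0.113). Cryab, a small heat shock protein, was nearly level at 0.18 ± 0.10 (adjusted p = 0.385), and its treated and untreated arrays overlapped.

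Among the metabolic enzymes and transporters, 4 of 6 rose. Sult1a1, a sulfotransferase of phenols, read 58 and 21.5 at 0 hr and 1011.5 and 847.1 at 36 hr in 3T3-L1, and 31 and 41.6 at 0 hr and 1174.4 and 2066.2 at 48 hr in 10T1/2. It was low on all 8 arrays at 0 hr, down to 8.3, and high on all 4 after treatment. The rise was 4.86 ± 0.23 (adjusted p = 0.00635), which is 29-fold on the normalised scale.

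Glul, glutamine synthetase, read 161 and 94.2 before and 1291.7 and 1173.2 after in 3T3-L1, and 332.9 and 396.8 before and 1360.7 and 2308.6 after in 10T1/2, a rise of 2.70 ± 0.27 (adjusted p = 0.0374). Nampt, the rate-limiting enzyme of NAD salvage, had the most even rise, 1.90 ± 0.10 (adjusted p = 0.0072), with pairs from 1.73 to 2.05. Pdk4, which turns off pyruvate dehydrogenase, rose by 1.82 ± 0.15 (adjusted p = 0.0294), with pairs from 1.35 to 2.14. None of these 3 overlapped between treated and untreated arrays. Angptl4, an inhibitor of lipoprotein lipase, and Tgm2, a transglutaminase, did not pass (-0.11 ± 0.28, adjusted p = 0.856, and 0.24 ± 0.33, adjusted p = 0.712), and their pairs went in both directions.

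Of 4 tested secreted and immune members, Lcn2 and Orm1 were called higher, both admitted by the filter through their treated arrays alone, so no p is given for them. Lcn2, a lipocalin that binds iron-carrying siderophores, read 5.7 and 0.9 at 0 hr and 495.2 and 216.7 at 36 hr in 3T3-L1, and 0.2 and 7.7 at 0 hr and 65.8 and 143.2 at 48 hr in 10T1/2. At 0 hr it was at 7.7 or less on all 8 arrays, and every treated array was far above that. The difference was 5.73 ± 0.49, and 3.35 with a pseudocount of 16, so its size is not well fixed.

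Orm1, an acute-phase protein of plasma, read 2.5 and 15.5 before and 176.8 and 260.9 after in 3T3-L1, and 3.7 and 6.2 before and 40.6 and 651.3 after in 10T1/2. The treated arrays were all higher, by very unequal amounts, with a difference of 4.71 ± 0.57, and of 3.21 with a pseudocount of 16. Saa3, a second acute-phase gene, was at 0.85 ± 0.48 (adjusted p = 0.373) and lower in 1 pair. Il1rl1, the receptor of interleukin-33, read 22 and 42.5 before and 5.8 and 5 after in 3T3-L1, and 68.4 and 66.4 before and 50.9 and 18 after in 10T1/2. It was lower in each pair, at -1.68 ± 0.40 (adjusted p = 0.133).

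The response of the members was then compared between the lines. None of the 27 members, and 0 of all genes (0%), differed past the threshold in limma's interaction test (10T1/2 minus 3T3-L1). An unadjusted p under 0.05 was found for 10 members and 1372 of all genes, and the smallest adjusted p was 0.358. The fit has 1 residual degree of freedom, and the harvest times of 36 and 48 hr differ with the line, so line and time cannot be told apart. Members higher by more than 1 on the log2 scale in both pairs of a line were 13 in 3T3-L1 (1.35% of all genes) and 16 in 10T1/2 (1.67%). In both lines they were 12, for which no share over all genes was taken. These counts include Zbtb16, Lcn2 and Orm1, which passed the filter only through their treated arrays.

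**Figure D3:**
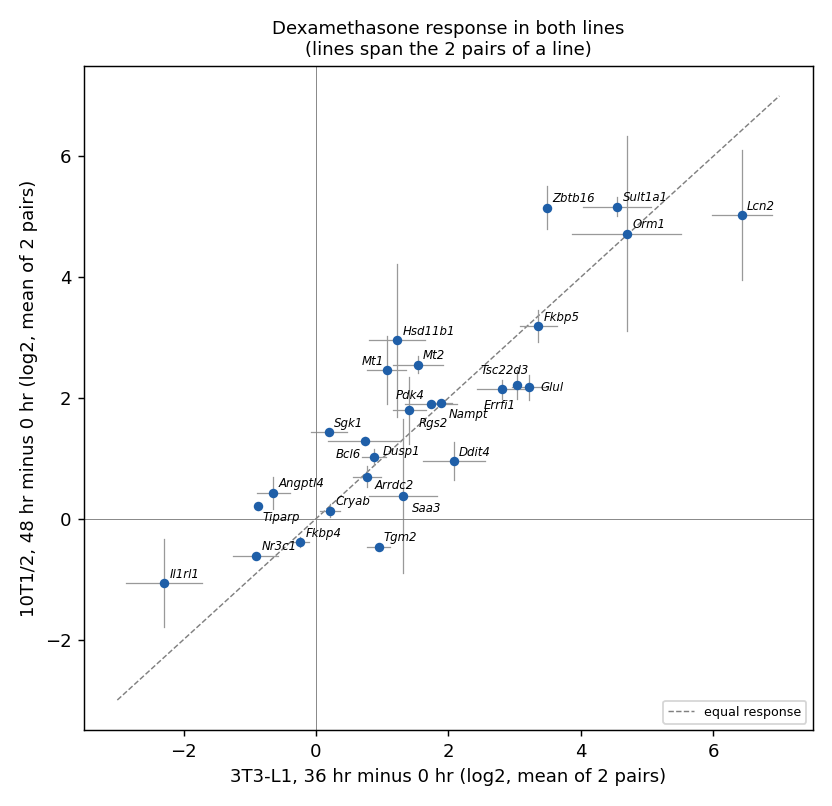
Mean difference after minus before dexamethasone in 3T3-L1 (x axis) and 10T1/2 (y axis), log2, for the 27 members tested, with grey lines that span the 2 pairs of a line and a dashed line of equal response. Fkbp5 and Nampt lie close to the dashed line, Mt1, Mt2 and Sgk1 above it, and Tgm2, Ddit4 and Glul below it.

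Fkbp5 responded by 3.36 in 3T3-L1 and 3.19 in 10T1/2 (means of 2 pairs), and the 95% interval of the difference, -1.34 to 1.01, leaves room for a change of more than 1 either way. Nampt was at 1.89 and 1.91, with an interval of -0.60 to 0.65. Of the members with the smallest p on the higher side in 10T1/2, Mt1 stood at 1.07 and 2.46, a difference of 1.39 (interval 0.66 to 2.13), which was 0.54 with the mean of its probe sets. Il1rl1 stood at -2.30 and -1.06, a difference of 1.23 (0.62 to 1.84), with the smaller mean decrease in 10T1/2 and unequal pairs there, and it was 0.39 with a pseudocount of 16.

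Tiparp read 817.8 and 595.5 at 0 hr and 448.2 and 312.7 at 36 hr in 3T3-L1, and 237 and 194.5 at 0 hr and 283.7 and 208.6 at 48 hr in 10T1/2. Both 3T3-L1 pairs were lower after treatment, and both 10T1/2 pairs were a little higher, with a difference of 1.09 between lines (interval 0.55 to 1.63). On the experiment B arrays of 3T3-L1 at 0 hr Tiparp read 413.3 to 507.9, a range that holds the 448.2 of the treated si-Ctr array. Angptl4 read 322.3 and 488.3, then 165.5 and 363.8 in 3T3-L1, and 246.2 and 150, then 272.8 and 239.3 in 10T1/2. It too was lower after treatment in both pairs of the first line and higher in both of the second, by 1.07 between lines (0.54 to 1.60). Angptl4 is also a gene of fat cells, and the adipocyte markers' summed signal rose from 2754.8 to 4240.9 and from 8458.3 to 17078 in the 3T3-L1 pairs, and from 493.2 to 2702.7 and from 1271.5 to 18026.8 in those of 10T1/2. Their part was not tested.

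On the side of 3T3-L1, Tgm2 read 25.1 and 14.8 at 0 hr and 54 and 26.4 at 36 hr, against 23 and 17.3 and then 15.5 and 13.4 in 10T1/2. The line difference was -1.41 (interval -2.08 to -0.74), at signals not far above the filter level, and was -0.81 with the mean of the probe sets and -0.90 with a pseudocount of 16. Glul differed by -1.05 (-1.59 to -0.51), Tsc22d3 by -0.82 (-1.58 to -0.05) and Ddit4 by -1.13 (-2.72 to 0.47; -1.90 with si-Ctr alone and -0.35 on the labelled arrays alone), all 3 of them higher after treatment in every pair of both lines. The adjusted p of these 8 named members was 0.358 to 0.529. Zbtb16 (1.66), Sgk1 (1.23) and Mt2 (1.02), singled out after their values were seen, were next on the higher side in 10T1/2, and the interval of Sgk1 was 0.47 to 2.00. The value of Zbtb16 rests on dim signals at 0 hr, and the gene passed the filter only through its treated arrays.

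By siRNA (labelled si-Setdb1 minus si-Ctr), the dexamethasone response of 0 of the 27 members and 0 of all genes (0%) differed past the threshold. An unadjusted p under 0.05 was found for 2 members and 889 of all genes, and the smallest adjusted p was 0.683. Fkbp5 differed by -0.02 (interval -1.20 to 1.15) and Tsc22d3 by -0.20 (-0.96 to 0.57), so for these 2 members differences within these bounds are not excluded. The members with the smallest p were Mt1 (0.86, interval 0.12 to 1.59), Angptl4 (0.52), Glul (0.48) and Sult1a1 (0.67) on the higher side. On the lower side they were Il1rl1 (-1.29, interval -1.90 to -0.68), Bcl6 (-0.61), Nr3c1 (-0.34) and Fkbp4 (-0.22). The adjusted p of these 8 was 0.683 to 0.725. Several were uneven between the lines. The difference of Nr3c1 was -0.68 in 3T3-L1 and -0.01 in 10T1/2. That of Bcl6 was -1.09 and -0.13, and that of Sult1a1 1.03 and 0.31. The fit takes the siRNA difference as equal in both lines, so opposite ones offset each other. Some members, singled out after their values were seen, went opposite ways. Hsd11b1 responded by 1.69 (si-Ctr) and 4.22 (labelled si-Setdb1) in 10T1/2, but by 1.65 and 0.80 in 3T3-L1. In the same order Rgs2 was at 1.23 and 2.35, then 1.66 and 1.16. Orm1, dim at 0 hr, was at 3.11 and 6.33, then 5.52 and 3.87. Lcn2, also dim at 0 hr, was at 6.11 and 3.95, then 5.98 and 6.89. With the si-Ctr pairs alone, or the pairs labelled si-Setdb1 alone, Fkbp5 was higher by 3.29 and 3.27, and 0 members were called in either set.

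Apart from dexamethasone, the level of the members was compared between the siRNAs, labelled si-Setdb1 minus si-Ctr, in 5 pairs of the same line, time and experiment. None of 27 members passed, against 138 of all genes (1.11%), and 14 were higher and 13 lower, with a median of 0.01. At an unadjusted p under 0.05 there were 8 members and 2760 of all genes.

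**Figure D4:**
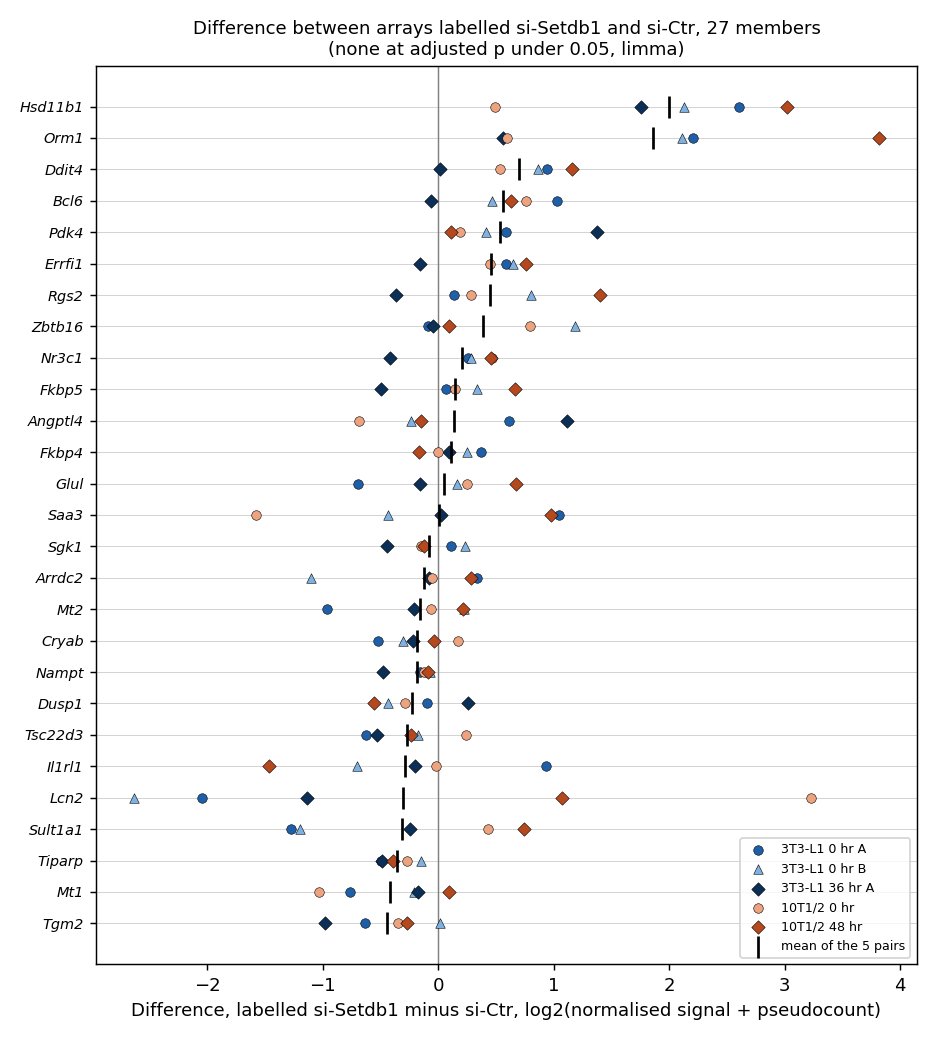
Difference between the array labelled si-Setdb1 and its si-Ctr partner for each of the 27 members tested, as log2(normalised signal + pseudocount) on the x axis, with 1 point per pair and a bar at the mean of the 5 pairs. Hsd11b1 and Orm1 lie furthest to the right and are higher in 5 of 5 pairs, and no member passed the threshold.

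Hsd11b1 had the largest difference, 2.00 ± 0.35 (log2, SE, 5 pairs; adjusted p = 0.0625). It was higher in 5 of 5 pairs, with 112.3 against 16.9, 100 against 25.1 and 196 against 54.5 in 3T3-L1, and 46.7 against 33 and 1007.6 against 110.3 in 10T1/2. Within each pair the labelled array was above its partner, although the 2 sets overlapped across lines and times. The difference was 1.97 without the pair of experiment B, and Hsd11b1 was called with a pseudocount of 16 (adjusted p = 0.0258) and with line and time in place of the pair (0.0472). Orm1 was higher in 5 of 5 pairs too, at 1.86 ± 0.49 (adjusted p = 0.106), and 1.37 without the 10T1/2 pair at 48 hr.

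Both genes are also known from fat cells, and adipocyte markers were higher in the same arrays. Of 7 tested markers 2 rose, Cebpa by 2.43 ± 0.28 (adjusted p = 0.0380) and Slc2a4 by 2.19 ± 0.28 (adjusted p = 0.0383), and Adipoq, the defining secreted protein of fat cells, read 221.6 to 4990.1 on the 5 labelled arrays against 3.8 to 287.3 on their partners. The part of fat cell markers in the values of Hsd11b1 and Orm1 was not tested. Ddit4 (0.70 ± 0.17, 5 of 5 pairs, adjusted p = 0.0975) and Bcl6 (0.57 ± 0.16, 4 of 5 pairs, adjusted p = 0.123) were next. For Ddit4 the 3T3-L1 pair at 36 hr was in effect level, at 0.01 after normalisation and deposited signals of 2107.7 against 2124.6. On the lower side were Tiparp (-0.36 ± 0.09, lower in 5 of 5 pairs, adjusted p = 0.0947), Tgm2 (-0.44), Mt1 (-0.42) and Nampt (-0.18). Nr3c1 was at 0.21 (interval -0.15 to 0.57) and Fkbp5 at 0.14 (-0.27 to 0.55).

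The arrays of the Mbd1 and Mcaf1 siRNAs were read without a test, against the si-Ctr array of experiment B. Differences past 1 on the log2 scale were seen for 2 of 27 members on the si-Mbd1 array (3.79% of all genes) and for 3 on the array labelled si-Mcaf1 (4.46% of all genes). On the former they were Orm1 (-1.58, at signals of 0.7 and 4.5) and Mt2 (1.06, 1884.9 against 903.5). On the latter they were Hsd11b1 (1.96, 92.7 against 25.1), Lcn2 (-1.14, under the filter level on both) and Zbtb16 (1.12, 8.2 against 3.4). Fkbp5 read 163.5 and 195.8 and Tsc22d3 477.2 and 375.3 on these arrays, below every array after dexamethasone.

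Other genes of the pathway gave the setting, in lists that were also chosen with earlier results of these data known. Of 25 tested genes in a list of further glucocorticoid-induced genes, 3 rose, 0 fell and 22 lay above 0. Their median was 0.85, against -0.01 over all genes. Per1, a clock gene, rose by 2.01 ± 0.09 (adjusted p = 0.00635), Cebpd, an early factor of adipogenesis, by 1.44 ± 0.12 (adjusted p = 0.0270), and Il6ra, the interleukin-6 receptor, by 2.35 ± 0.22 (adjusted p = 0.0374). The 3 below 0 were Timp3 (-1.56), Dusp4 (-0.76) and Cgref1 (-0.21), none past the threshold.

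Of 23 tested receptor chaperones and coregulators, 0 rose and 0 fell, with 3 at an unadjusted p under 0.05 and a median of -0.05. Nr3c2, the mineralocorticoid receptor, which also binds glucocorticoids, was at -0.68 ± 0.11 (adjusted p = 0.0794), lower in 4 of 4 pairs. Med1, a Mediator subunit, was at -0.22, while Nfkbia, the inhibitor of NF-kappaB, was at 0.42, Ppp5c, a phosphatase of the receptor complex, at 0.47 and Hspa4, a chaperone, at 0.18.

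Of 17 tested genes in a list of those lowered by glucocorticoids, 17 lay below 0 in the mean of the 4 pairs. Their median was -0.76, against -0.01 over all genes, and 0 fell past the threshold (8 at an unadjusted p under 0.05). In the 10T1/2 si-Ctr pair 7 of the 17 were higher after treatment, against 1 or 2 in each of the other pairs. The line difference was positive for 14 of the 17, with a median of 0.73. Mmp9, a matrix protease, was at -2.28 ± 0.34 (adjusted p = 0.0741), Ptgs2, cyclooxygenase of prostaglandin synthesis, at -1.64 ± 0.29 (adjusted p = 0.0861), and Vcam1, an adhesion molecule, at -1.09 ± 0.21 (adjusted p = 0.103).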

How the data were processed

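Biotin-labelled cRNA from 12 samples was hybridised to Affymetrix arrays, per the labels' protocols. The values deposited by the authors are linear intensities, 1 for each probe set on each array, with a trimmed mean (2% off each end) of 100 throughout. Log2 ratio columns that the authors deposited beside them were not used. The software behind the intensities is not given in the sources used here, and the number of arrays limits the precision. Of 45037 probe sets that are not controls, 38068 had 1 symbol, 1253 several, 5654 none and 62 a date; only the first were named, through RefSeq (33189 current symbols, 2002 synonyms, 2877 kept as deposited).

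A gene was read from its brightest probe set. Values were log2(intensity + 0.8), with the 10th percentile of all intensities as the pseudocount, then quantile normalised, so fold changes understate those of dim genes. A filter at the 40th percentile of the genes' mean log2 values (signal 7.67) left 12402. Signals in the text are deposited intensities. The tests used limma (version 3.58.1; R 4.3.3; lmFit and eBayes), 2-sided, with Benjamini-Hochberg adjustment over these genes: the dexamethasone response in 4 pairs (3 residual degrees of freedom), its interactions with line and siRNA (1 residual degree of freedom, where the plan had stated 2 by a miscount), and si-Setdb1 against si-Ctr in 5 pairs (4). Pairs share line and siRNA, or line, time and the experiment letter; over genes, experiment A minus B correlated between the siRNAs (r = 0.426). Pairs of 1 line may share a culture and are not shown to be independent. The scripts were tested on simulated data.

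The members and the gene lists were chosen with earlier results of these data known. Each member is accounted for in the dexamethasone response; other comparisons name up to 4 members per direction by smallest p, and the pathway lists up to 3, of which 1 is not reported here. Alternatives were another scaling, pseudocount, filter and probe set rule, no pairing, and each pair left out. Promoters came from RefSeq (GRCm38.p6) for 24 members.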

Additional observations from a re-analysis of the deposited data

Results flagged for a closer look

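Both 3T3-L1 pairs differed one way after dexamethasone and both 10T1/2 pairs the other for 4 members. For Angptl4 the difference between lines (10T1/2 minus 3T3-L1) was 1.07, for Tiparp 1.09 and for Tgm2 -1.41 (log2), and limma's interaction test gave an adjusted p of 0.358 for each, so none passed. These directions are those of the brightest probe sets. Of the 4 other Tgm2 probe sets above the filter level, 3 were higher in at least 1 of the 10T1/2 pairs, and with the mean of the probe sets the line difference was -0.81. Another Tiparp probe set read 0.05 and -0.12 in the 10T1/2 pairs. Ccl11, the chemokine eotaxin, differed by 3.51, and this difference was not tested, since its mean log2 value was under the filter. Ccl11 read 27.3 and 53.5 at 0 hr and 4.1 and 3.2 at 36 hr in 3T3-L1, and 13.3 to 23.7 on the experiment B arrays, while in 10T1/2 it stayed at 0.4 to 1.0 on all 4 arrays. The gene was thus near the bottom of the scale in 10T1/2 throughout.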

How the results depend on the processing

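The number of genes called depended on the processing. For the dexamethasone response, 95 genes and 11 members became 371 and 17 with a pseudocount of 16, 0 and 0 with no filter (20670 genes tested), 459 and 14 with a stricter filter (8268 tested), 19 and 6 with the mean of the probe sets, and 190 and 13 with no replicate block, that is with line and siRNA in place of the pairing. Leaving out each pair in turn gave 1 to 13 genes and 0 to 3 members: 1 member without the 3T3-L1 si-Ctr pair (Sult1a1), 0 without the 3T3-L1 pair labelled si-Setdb1, 1 without the 10T1/2 si-Ctr pair (Fkbp5) and 3 without the 10T1/2 pair labelled si-Setdb1 (Fkbp5, Sult1a1 and Lcn2). In fits added after the data were seen, the si-Ctr pairs alone gave 0 genes and 0 members, and the pairs labelled si-Setdb1 alone also 0 and 0. For the line difference, a pseudocount of 16 gave 2 genes in place of 0. For si-Setdb1 against si-Ctr, 138 genes and 0 members became 606 and 2 with a pseudocount of 16, 0 genes with no filter, 840 and 4 with a stricter filter, 2 genes with the mean of the probe sets, 0 without any 1 of the 5 pairs, and 1 member with no replicate block. Past 1 on the lone arrays, a pseudocount of 16 left 1 member on the si-Mbd1 array in place of 2 and 1 on that labelled si-Mcaf1 in place of 3. Values changed sign only for 2 members that were not called: without each pair in turn Angptl4 ran from -0.38 to 0.15 and Tgm2 from -0.052 to 0.49, both with the other sign without the 3T3-L1 si-Ctr pair, and with the pairs labelled si-Setdb1 alone Angptl4 was at 0.15. Other filters change the number of genes tested and left-out pairs the number of arrays; for the other alternatives the cause was not tested. With a pair left out the interactions have no residual degrees of freedom, and their values carry no test. Arrays without replicates and signals near the filter level limit what can be read of Lcn2, Orm1, Zbtb16 and Saa3.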

Other observations

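The remaining 3 members under the filter read as follows. Tat, the tyrosine aminotransferase that glucocorticoids induce in liver, read 0.5 to 9.5 over the 12 arrays. Mfsd2a, a transporter of lysophosphatidylcholine, read 0.3 to 6.7, and was higher in 4 of 4 pairs after dexamethasone and in 5 of 5 pairs labelled si-Setdb1, always at signals under the filter level. Gpx3, a secreted glutathione peroxidase, read 0.4 to 3.4. At these signals no response could be read for any of the 3.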
